A study of Mus musculus with 20 samples.

Results

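BrafV600E colon organoids were compared after 48 h without and with stem-cell niche factors. The arrays were chosen by title alone, as the 3 BRAF lines in base medium and the same 3 lines in ENSW medium, which makes 6 of the 20 arrays of the study. Total RNA was hybridised to single-colour (Cy3) Agilent arrays. Proximal colon crypts (the first 2.5 cm) came from male mice of around 40 days that carried 1 Cre-activable BrafV600E allele beside a wild-type allele (Braf+/LSL), and grew in Matrigel. BRAF organoids had received Cre by lentivirus and were profiled 5 months after induction. EV organoids, used for comparison, carried the same allele not activated and had received the lentiviral backbone alone. Selected organoids, also used for comparison, were BrafV600E organoids that had been selected to grow in base medium. EV and selected organoids had 3 lines in each medium too. Organoids were grown with EGF in a mix of conditioned media (50% for Wnt3a, 20% for R-Spondin and 10% for Noggin) and 20% Advanced DMEM/F12 with B27. The labels describe base medium as lacking niche factors and do not list its contents. Each line and medium gave 1 array, and both media of a line shared a slide. Of the spots of the 6 BRAF arrays, 60.87% to 65.16% were well above background in base medium and 59.82% to 64.75% in ENSW medium. BRAF line 1 shared its slide with selected line 3, while lines 2 and 3 had slides without another organoid type. The labels give the numbers 1, 2 and 3 to lines of all 3 organoid types, and do not say whether lines of the same number share a mouse or whether the 3 lines of a type came from separate mice. The fit treated lines of different types as unrelated. For each gene its p-values rest on 1 spread between lines, pooled over the 3 organoid types. The median standard deviation over genes of the 3 base minus ENSW differences was 0.313 in BRAF, 0.296 in EV and 0.203 in selected organoids. In these bulk samples, fewer cells of a type and less RNA per cell cannot be told apart.

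In the colon crypt, Wnt ligands and R-spondins from the surrounding tissue maintain Lgr5-positive stem cells and cycling progenitors. BMP signals are strongest towards the surface, where they act through SMAD proteins on differentiating cells, and Noggin binds BMPs and blocks them. EGF drives growth through RAS, RAF and MAP kinase, the cascade in which BrafV600E is a constantly active kinase. When organoids lose these factors, crypt cells normally leave the cell cycle and mature into absorptive colonocytes and secretory cells.

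Levels below are log2 processed signal minus the array's own 75th percentile, and differences are base minus ENSW in log2 units, with the standard error (SE) of a limma fit paired by line. The threshold for a call was an adjusted p of 0.05 (Benjamini-Hochberg, 21410 genes). Braf itself had levels of -2.37, -2.69 and -1.92 in base medium and -2.17, -2.55 and -2.28 in ENSW medium in lines 1, 2 and 3. The media overlapped and the difference was 0.01 ± 0.17 (adjusted p = 0.984). The probe reads the transcripts of both alleles, so it checks nothing about activation.

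Base medium changed 2984 genes (13.9%) in BRAF organoids, 1724 higher (8.05%) and 1260 lower (5.89%), and 1189 of them by more than 1 log2 unit. A step of over 1 log2 unit in all 3 lines was upward for 1.75% of all genes and downward for 0.453%. The authors' deposited values gave 1844 higher and 2048 lower. Differentiation genes of the colonocyte and the BMP-responsive Id genes rose, while genes of ribosome assembly, a Wnt-dependent stem cell gene and ETS factors downstream of MAP kinase fell. The median of all genes was 0.06. Of the called genes 2168 had base and ENSW arrays that did not overlap, and 2978 went the same way in all 3 lines. The spread between lines was wide: 4811 genes were called without line 1, 424 without line 2 and 588 without line 3. The 6 BRAF arrays fitted alone, with 2 residual degrees of freedom, gave 0 called genes by limma (4936 at an unadjusted p under 0.05), and the unpaired fit gave 358.

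The 3 lines did not respond alike. Lines 2 and 3 had 3832 and 2972 genes that differed by more than 1 log2 unit between the media, and line 1 had 1838. Across genes, which are not independent replicates, the responses of lines 2 and 3 correlated at r = 0.72, and that of line 1 at r = 0.38 with line 2 and 0.36 with line 3. In EV organoids the 3 pairs of lines correlated at r = 0.82 to 0.90. Line 1 moved with the others in the BMP target, colonocyte, cholesterol and ETS genes, and differed from them in stem cell, Wnt target and cell-cycle genes. Most BRAF list counts below are followed by the counts without line 1, 2 and 3, in that order. The shares of all genes that go with the list counts, 8.05% higher and 5.89% lower, are those of the full fit only. Over all genes 2695, 341 and 430 were called higher without line 1, 2 and 3, and 2116, 83 and 158 lower. A list count therefore also moves with the total when a line is left out.

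**Figure D1:**
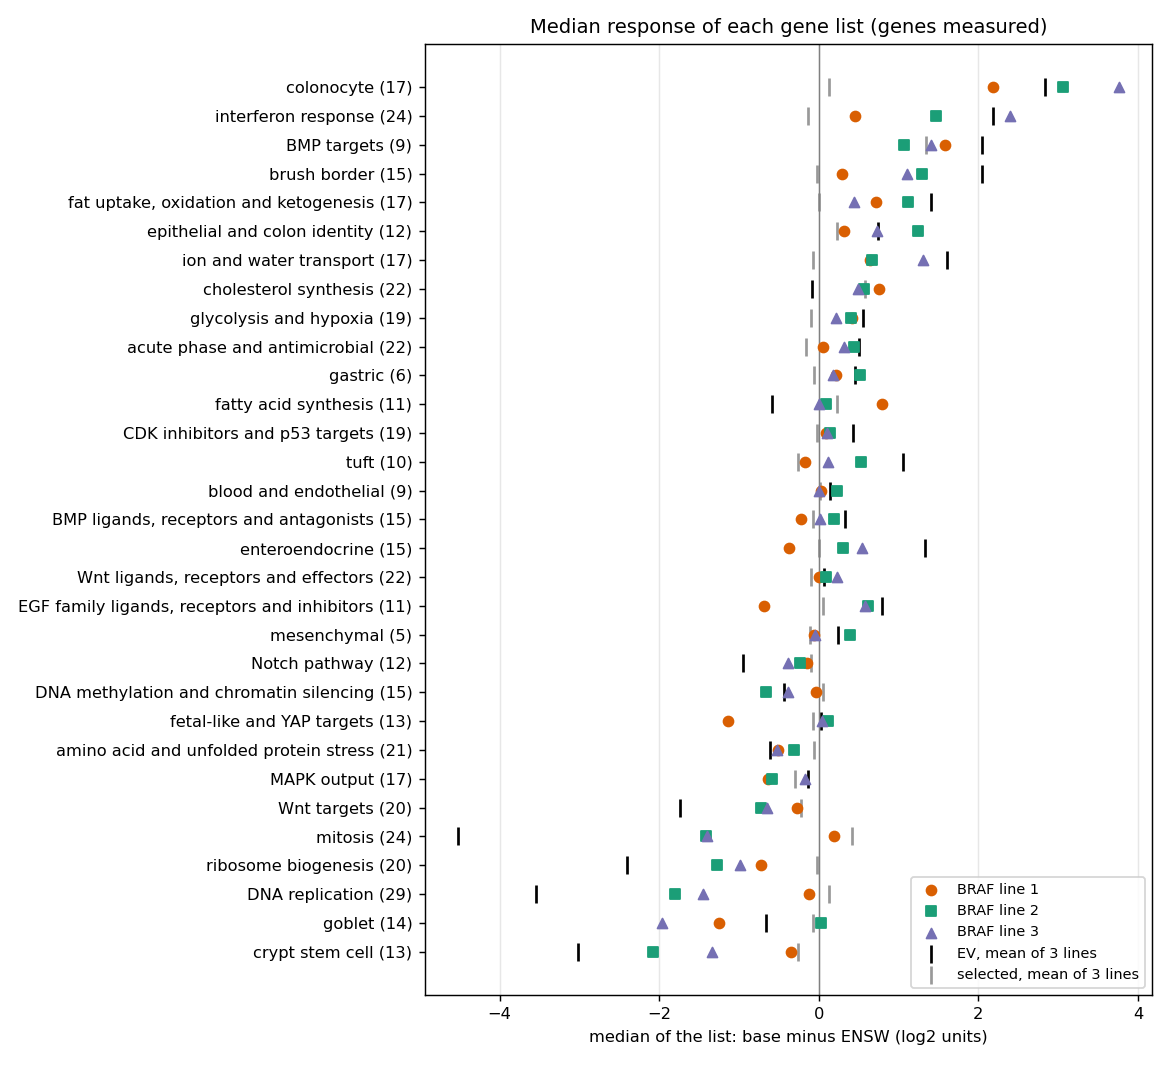
Median base minus ENSW difference (log2 units, x axis) of each of 31 gene lists (y axis, with the number of measured genes) in BRAF lines 1, 2 and 3 (symbols), with the mean of the 3 EV lines and of the 3 selected lines as bars. Colonocyte genes lie highest at 2.18, 3.06 and 3.77 in the 3 BRAF lines, and the mitosis list lies at 0.19 in line 1 against -1.41 in lines 2 and 3.

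Id1, Id2 and Id3, among the best known BMP targets, were higher in base medium in all 3 lines. Of 9 measured BMP targets 4 rose and 0 fell (4, 3 and 2 rose), against 8.05% and 5.89% of all genes, with a median difference of 1.36 (0.06 over all genes). Id1 and Id3 encode helix-loop-helix proteins that block differentiation factors and are known as direct targets of BMP-activated SMADs. Id3 (probe on chromosome 4, 135700075 to 135700249, mm9) had levels of 1.24, 0.67 and 0.30 in base medium, against -2.42, -4.12 and -4.29 in ENSW medium. Id1 (chromosome 2, 152563083 to 152563142, mm9) had levels of 4.81, 4.83 and 5.00 in base medium, against 2.21, 1.65 and 2.05 in ENSW medium. For both genes every base array lay above every ENSW array. Id3 rose by 4.35 ± 0.31 (adjusted p = 0.00106) and Id1 by 2.91 ± 0.18 (adjusted p = 0.000621). Id2, of the same family, rose by 1.36 ± 0.22 (adjusted p = 0.00951), and Smad7, which inhibits the pathway, by 1.53 ± 0.31 (adjusted p = 0.0183). The Id2 call was lost without line 3 (0.0579) and the Smad7 call without line 2 or 3 (0.115 and 0.101). Smad6, the other inhibitory SMAD, gave 1.68 ± 0.55 (adjusted p = 0.0757), and Id4 gave -0.44 ± 0.86 (adjusted p = 0.756); neither was called.

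Id1 and Id3 rose in each organoid type. In EV organoids Id1 and Id3 rose by 2.73 ± 0.18 and 4.68 ± 0.31 (adjusted p = 6.51e-05 for both). In selected organoids they rose by 3.19 ± 0.18 (adjusted p = 0.00116) and 4.76 ± 0.31 (adjusted p = 0.00177), and they were 2 of the 4 genes called there (0.0187%), beside Rab32 and Zscan4a. The BRAF response minus the EV response was 0.18 ± 0.26 for Id1 (adjusted p = 0.662) and -0.33 ± 0.44 for Id3 (adjusted p = 0.636), and 0 of the 9 BMP targets differed from EV by limma (15.0% of all genes did). Of 15 BMP ligands, receptors and antagonists 1 rose and 0 fell (3, 0 and 0 rose, and 1, 0 and 0 fell), against 8.05% and 5.89% of all genes. The 1 called was Bmp2, a ligand made by surface colonocytes, which rose by 1.88 ± 0.33 (adjusted p = 0.0118, and 0.0826 and 0.0629 without line 2 and 3).

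The promoter windows of Id3 and Id2 are shown because both genes are known BMP targets and BMP signals act through SMAD proteins. Whether sites in these windows carry the response was not tested. Windows of 300 bases around the gene start come from RefSeq (GRCm38.p6) and run 5' to 3' on the gene's strand. Capitals mark the SMAD core site CAGAC, on either strand, and the GC-rich SMAD element GGCGCC. The Id3 window lies at chr4:136143572-136143871 on the plus strand, and the Id2 window at chr12:25096043-25096342 on the minus strand. Of the 4 called BMP targets these 2 had a window that could be shown.
Id3: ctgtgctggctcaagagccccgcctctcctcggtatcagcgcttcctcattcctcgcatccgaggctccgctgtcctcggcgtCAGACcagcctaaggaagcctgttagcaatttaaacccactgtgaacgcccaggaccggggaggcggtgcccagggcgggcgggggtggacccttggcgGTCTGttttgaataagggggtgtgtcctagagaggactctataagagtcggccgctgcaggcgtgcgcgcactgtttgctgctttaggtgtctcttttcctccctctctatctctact
Id2: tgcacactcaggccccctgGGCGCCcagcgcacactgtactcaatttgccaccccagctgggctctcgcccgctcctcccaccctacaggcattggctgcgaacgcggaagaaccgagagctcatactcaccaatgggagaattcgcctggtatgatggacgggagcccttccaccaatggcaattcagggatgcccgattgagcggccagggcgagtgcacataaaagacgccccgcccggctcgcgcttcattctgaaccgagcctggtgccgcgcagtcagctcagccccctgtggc
The Id3 window held 2 CAGAC and 0 GGCGCC, and the Id2 window held 0 CAGAC and 1 GGCGCC. The TCF core CTTTG was found 0 times in either window, on both strands, and none of the matches overlapped. Of 27025 promoter windows 49.7% hold CAGAC, 12.0% hold GGCGCC and 54.0% hold CTTTG, so a match describes the letters and marks no bound site.

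Colonocyte genes had the highest median of the 31 lists. Of 17 measured, 13 rose and 0 fell (13, 8 and 7 rose), with a median difference of 3.1, and 13 of the 17 had base arrays that all lay above the ENSW arrays (12.2% of all genes did). Krt20, a keratin of surface colonocytes (probe on chromosome 11, 99289776 to 99289835, mm9), had levels of 4.34, 6.50 and 5.69 in base medium, against 1.46, -0.69 and 0.31 in ENSW medium. Tmigd1, an adhesion protein of mature enterocytes, had levels of 1.52, 2.98 and 2.32 in base medium, against -2.07, -4.16 and -4.00 in ENSW medium. Both genes were higher on every base array, and line 1 had the smallest step. Tmigd1 rose by 5.68 ± 0.67 (adjusted p = 0.00373) and Krt20 by 5.15 ± 0.75 (adjusted p = 0.00622). Guca2a, the gut peptide guanylin, rose by 4.97 ± 0.73 (adjusted p = 0.0066), and Lypd8, which keeps bacteria off the epithelium, by 4.12 ± 0.40 (adjusted p = 0.00215). Slc26a3, the chloride and bicarbonate exchanger of the colon surface, was not well above background on any ENSW array and was at least 4.01-fold higher (adjusted p = 0.00382, and 0.236 with normexp). An "at least" fold sets the brighter medium against the lowest signal well above background on the dim arrays, or the probe's own signal if higher.

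**Figure D2:**
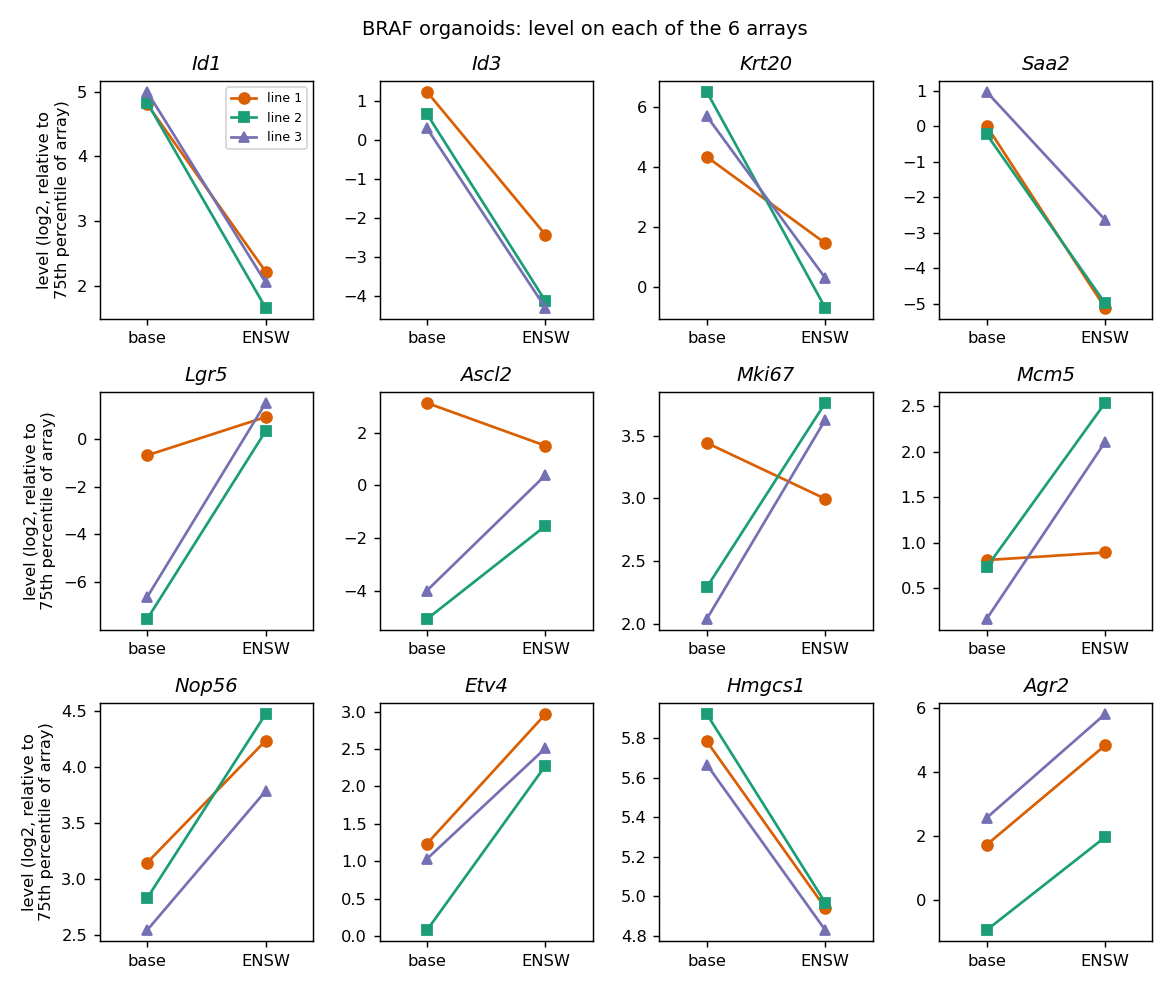
Level on each of the 6 BRAF arrays (log2 minus the array's 75th percentile, y axis) in base and ENSW medium (x axis) for 12 genes, with each line joined across media. Id1, Id3, Krt20 and Saa2 lie higher in base medium in all 3 lines, and Lgr5, Etv4, Nop56 and Agr2 lower, while Ascl2 and Mki67 go up in line 1 and down in lines 2 and 3.

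Colonocyte genes rose in EV organoids too. The EV median for the list was 2.83, with 15 of 17 called higher (34.0% of all genes were called higher in EV). Krt20 rose there by 4.63 ± 0.75 (adjusted p = 0.000879). The BRAF response differed from the EV response for 1 of the 17, against 15.0% of all genes. That gene, Fabp2, a fatty acid binding protein of enterocytes, rose by 2.65 ± 0.46 in BRAF organoids (adjusted p = 0.0118, and 0.0684 and 0.0628 without line 2 and 3) and by 5.35 ± 0.46 in EV organoids (difference -2.71 ± 0.65, adjusted p = 0.0314). In selected organoids the list median was 0.13 and 0 of 17 were called, where only 0.0187% of all genes were.

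Genes that build and run the absorptive surface followed. Of 15 brush border genes 6 rose and 0 fell (9, 2 and 2 rose), with a median of 0.84 and an EV median of 2.04. Myo1a, the motor that ties the actin core of microvilli to the membrane, had levels of 3.00, 5.39 and 3.70 in base medium, against 0.59, 0.48 and 0.62 in ENSW medium. The ENSW arrays were tight and every base array lay above them, a rise of 3.47 ± 0.45 (adjusted p = 0.00435). Alpi, intestinal alkaline phosphatase, rose by 4.51 ± 0.30 (adjusted p = 0.00096). Of 17 ion and water transport genes 7 rose and 0 fell (7, 3 and 2 rose, and 1, 0 and 0 fell), against 8.05% and 5.89% of all genes. Of 17 genes of fat uptake, oxidation and ketogenesis 6 rose and 0 fell (7, 2 and 3 rose). Among them Pparg, the nuclear receptor for fatty acids, rose by 1.41 ± 0.15 (adjusted p = 0.00263), and Cpt1a, which carries fatty acids into mitochondria, by 1.13 ± 0.17 (adjusted p = 0.00651).

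Several epithelial and colon identity genes rose. Of 12 genes, 6 rose and 0 fell (10, 3 and 4 rose, and 1, 0 and 0 fell). Hnf4a, a transcription factor of enterocytes, rose by 1.43 ± 0.17 (adjusted p = 0.00373), and Cdx2, the intestinal homeobox factor, by 1.39 ± 0.20 (adjusted p = 0.00618, and 0.051 without line 2). Elf3, an epithelial ETS factor, rose by 0.97 ± 0.14 (adjusted p = 0.00622) and differed from its EV value of 0.20 ± 0.14 (difference 0.77 ± 0.20, adjusted p = 0.0369), a difference lost without any 1 of 5 of the 6 lines (up to 0.101).

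Goblet cell genes split. Of 14 measured, 2 rose and 4 fell (3, 0 and 1 rose, and 2, 4 and 1 fell), against 8.05% and 5.89% of all genes, with a median difference of -1.15. Agr2, a disulfide isomerase needed to make mucin, had levels of 1.73, -0.93 and 2.57 in base medium, against 4.84, 1.97 and 5.81 in ENSW medium. The media overlapped, with line 2 lowest in both, but all 3 lines were lower in base medium by a like step, -3.08 ± 0.38 (adjusted p = 0.00398). Spink4, a goblet protease inhibitor, fell by 3.25 ± 0.53 (adjusted p = 0.00932). Spdef, the goblet cell transcription factor, fell by 3.00 ± 0.74 (adjusted p = 0.0338) and Muc2, the main gel-forming mucin, by 2.40 ± 0.62 (adjusted p = 0.0387). Muc2 lay at -2.86, -6.24 and 0.06 in base medium, against 0.58, -5.03 and 2.61 in ENSW medium, with line 2 lowest in both. Zg16, a mucus lectin, rose by 3.29 ± 0.53 (adjusted p = 0.00907) and Clca1, a mucus protease, by 1.39 ± 0.23 (adjusted p = 0.0102). Of these only Agr2 held without each line: Muc2 was lost without any line (up to 0.151), Spdef without line 1 or 3 (0.0848 and 0.171), Spink4 without line 3 (0.0614), Zg16 without line 2 (0.0591) and Clca1 without line 2 or 3 (0.0643 and 0.0656). With culture as a random block, Spdef (0.066), Muc2 (0.159), Spink4 (0.0514) and Clca1 (0.053) also missed the threshold, and without the filter Spdef (0.0581) and Muc2 (0.0655) did.

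In BRAF organoids, other secretory lineages gave counts near the background or below it. Of 15 enteroendocrine genes 1 rose and 1 fell (2, 2 and 0 rose, and 0, 0 and 0 fell), against 8.05% and 5.89% of all genes, with a median of 0.08. In EV organoids the median was 1.33 and 10 of the 15 were called higher, against 34.0% of all genes. Neurog3, which starts the enteroendocrine lineage, fell by 2.53 ± 0.69 (adjusted p = 0.0453), but missed the threshold without any 1 line (up to 0.22) and without the filter (0.076). Of 10 tuft cell genes 0 were called by limma in either direction, and 0 had an unadjusted p under 0.05.

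The stem cell and Wnt target genes divided the lines. Of 13 crypt stem cell genes 1 rose and 2 fell (1, 0 and 1 rose, and 7, 0 and 0 fell), with a median of -1.25, and of 20 Wnt targets 0 rose and 2 fell (1, 0 and 0 rose, and 8, 0 and 0 fell), with a median of -0.60. Over all genes 8.05% rose and 5.89% fell. Lgr5, the R-spondin receptor of crypt stem cells (probe on chromosome 10, 114887403 to 114887462, mm9), had levels of -0.68, -7.54 and -6.62 in base medium, against 0.92, 0.33 and 1.51 in ENSW medium. All 3 lines were lower in base medium and the media did not overlap, but line 1 kept a level far above the other two. The fall was -5.87 ± 1.39 (adjusted p = 0.0309, 0.19 and 0.157 without line 2 and 3, and 0.0533 without the filter), and in EV organoids it was -6.99 ± 1.39 (adjusted p = 0.00268). The size in BRAF organoids depended on the processing and the lines, from -8.00 to -2.81 across the alternatives. Ascl2, a Wnt-driven transcription factor of stem cells, had levels of 3.12, -5.07 and -3.99 in base medium, against 1.50, -1.54 and 0.39 in ENSW medium. It was higher in base medium in line 1 and lower in lines 2 and 3, with a mean difference of -2.10 ± 1.07 (adjusted p = 0.202, and 0.0121 without line 1). Axin2, a feedback inhibitor of Wnt signalling, had differences of 0.98 in line 1, -0.64 in line 2 and -0.69 in line 3 (adjusted p = 0.814, and 0.0305 without line 1). These values are of its brighter probe, and the dimmer one, well above background on 4 of the 6 arrays, with 1.02, -3.88 and -5.00, had the same direction in each line and a larger mean difference (-2.62 against -0.12). Myc, a Wnt and MAP kinase target, gave -0.84 ± 0.26 (adjusted p = 0.0649) in BRAF organoids and fell by 2.13 ± 0.26 in EV organoids (adjusted p = 0.000243). In BRAF organoids Myc was called lower under 5 of 8 other settings, such as normexp (0.0325) and the authors' values (0.0384). It missed the threshold without line 1, 2 or 3 (0.0553, 0.347 and 0.153).

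Cell-cycle genes were mostly lower in base medium in lines 2 and 3 and little moved in line 1. Of 29 DNA replication genes 0 rose and 10 fell (22, 0 and 0 fell), with a median of -1.14 and medians by line of -0.12, -1.81 and -1.46. Of 24 mitosis genes 0 rose and 2 fell (10, 0 and 0 fell), against 8.05% and 5.89% of all genes. The mitosis median was -0.85, with medians by line of 0.19, -1.41 and -1.41. Only 4 of these 24 genes were lower in all 3 lines (21.4% of all genes were). In dividing cells Mki67 is present throughout the cycle, and it had levels of 3.44, 2.29 and 2.04 in base medium, against 3.00, 3.76 and 3.63 in ENSW medium. Line 1 lay higher in base medium and lines 2 and 3 lower, so the media overlapped and the difference was -0.87 ± 0.59 (adjusted p = 0.327). Mcm7, a subunit of the replication helicase, fell by 1.32 ± 0.36 (adjusted p = 0.0454) and E2f1, which switches on S-phase genes, by 1.13 ± 0.24 (adjusted p = 0.0222). Both calls were lost without line 2 (0.254 and 0.15) or line 3 (0.218 and 0.121), and that of Mcm7 without the filter (0.0748). E2f2, of the same family, rose by 1.65 ± 0.19 (adjusted p = 0.00373, 0.065 with culture as a random block and 0.0559 with normexp). Of 19 CDK inhibitors and p53 targets 3 rose and 0 fell (4, 1 and 1 rose, and 2, 0 and 0 fell), against 8.05% and 5.89% of all genes. Among the 3 was Cdkn1c, the inhibitor p57, which rose by 2.37 ± 0.43 (adjusted p = 0.0133). Cdkn1a, the inhibitor p21, gave 0.55 (adjusted p = 0.0736).

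**Figure D3:**
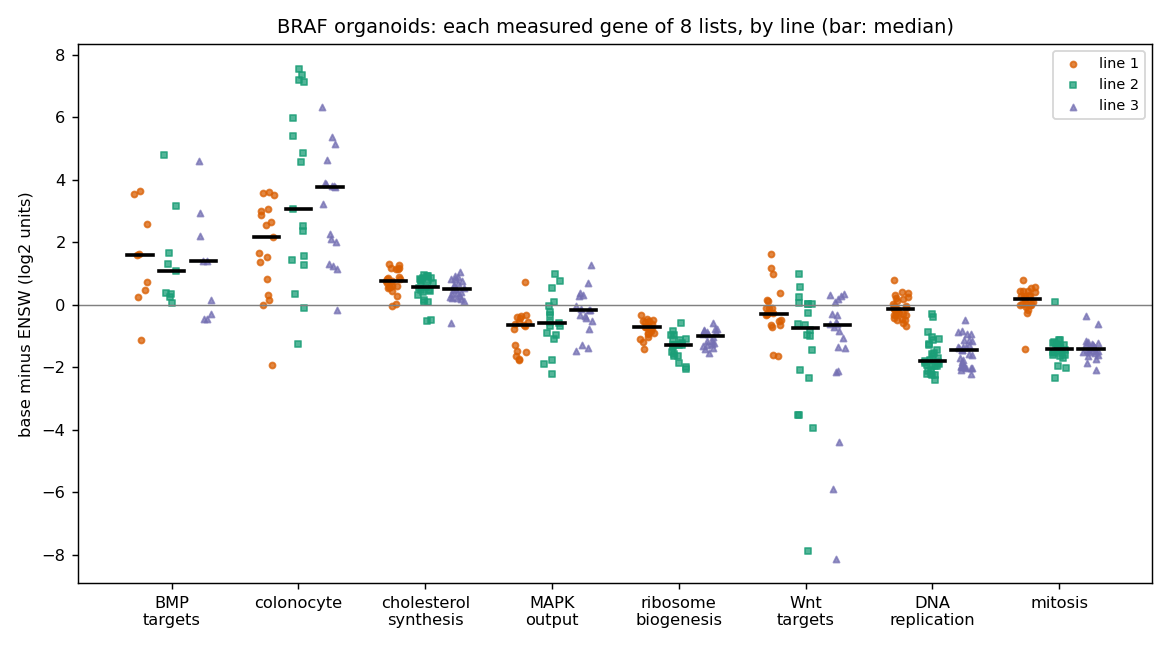
Base minus ENSW difference (log2 units, y axis) of each measured gene of 8 lists (x axis) in BRAF lines 1, 2 and 3 (symbols), with the median of each list and line as a bar. BMP target, colonocyte and cholesterol genes lie mostly above 0 in every line, while DNA replication genes centre on -0.12 in line 1, -1.81 in line 2 and -1.46 in line 3.

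The fall of cell-cycle genes was far smaller than in EV organoids. There the replication list had a median of -3.55 and the mitosis list of -4.52, and Mki67 fell by 5.02 ± 0.59 (adjusted p = 0.000197). The BRAF response was higher than the EV response for 24 of 29 replication genes and 21 of 24 mitosis genes, and lower for 0 of either, against 9.59% of all genes higher and 5.44% lower. For Mki67 the difference of responses was 4.15 ± 0.83 (adjusted p = 0.0265, up to 0.0719 without 1 line). Leaving out 1 line at a time kept 7 to 24 of the 29 and 7 to 21 of the 24, and the fewest came without EV line 3 for replication (7) and without BRAF line 1 for mitosis (7). Without BRAF line 1, which fell least, the counts were 10 of 29 and 7 of 24. In selected organoids the medians of the lists were 0.13 and 0.42, and 0 genes of either list were called (0.0187% of all genes were).

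Ribosome assembly genes were lower in every line. Of 20 measured, 0 rose and 18 fell (18, 1 and 3 fell), with a median of -0.99. All 20 were lower in base medium in all 3 lines (21.4% of all genes were), and for 19 the media did not overlap (9.76% of all genes). Nop56, a core protein of the particles that methylate ribosomal RNA, had levels of 3.15, 2.83 and 2.55 in base medium, against 4.24, 4.48 and 3.79 in ENSW medium. Each base array lay below each ENSW array, a fall of 1.32 ± 0.19 (adjusted p = 0.00622, and 0.0515 without line 2). Pes1, needed for the large subunit, fell by 1.11 ± 0.13 (adjusted p = 0.00373) and held without each line. Ncl, nucleolin, fell by 0.85 ± 0.21 (adjusted p = 0.0335, and 0.195 and 0.14 without line 2 and 3, and 0.0531 without the filter). In EV organoids the list median was -2.40, and 17 of 20 genes fell less in BRAF organoids than in EV organoids (0 without BRAF line 1, 4 without BRAF line 3 and 4 without EV line 3). Over all genes the BRAF response was higher for 9.59% (2053 genes). In the same 3 fits with a line left out that total was 239, 864 and 379.

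Genes of amino acid synthesis and stress were mostly lower. Of 21 measured, 1 rose and 8 fell (2, 0 and 0 rose, and 7, 0 and 0 fell), against 8.05% and 5.89% of all genes, with a median of -0.47. Phgdh, the first enzyme of serine synthesis, fell by 1.11 ± 0.25 (adjusted p = 0.026) and Asns, asparagine synthetase, by 1.10 ± 0.21 (adjusted p = 0.0156). Both calls were lost without line 2 (0.132 and 0.11) or line 3 (0.136 and 0.0773). In EV organoids Phgdh fell by 3.75 ± 0.25 (adjusted p = 6.51e-05), which differed from BRAF organoids by 2.63 ± 0.36 (adjusted p = 0.0157).

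MAP kinase output genes were mostly lower. Of 17 measured, 0 rose and 5 fell (1, 0 and 0 rose, and 4, 3 and 3 fell), with a median of -0.53. Of the 17, 12 were lower in all 3 lines (21.4% of all genes were), and 8 were lower without overlap of the media (9.76% of all genes). The 3 strongest were Etv4, Etv5 and Etv1, the PEA3 group of ETS transcription factors that ERK and FGF signals switch on. Etv4 had levels of 1.23, 0.08 and 1.03 in base medium, against 2.97, 2.28 and 2.51 in ENSW medium. Etv5 had levels of 0.47, -0.45 and 0.33 in base medium, against 1.96, 1.43 and 1.71 in ENSW medium. Etv1 had levels of -4.42, -3.74 and -3.44 in base medium, against -2.80, -1.99 and -2.17 in ENSW medium. The media did not overlap for any of them, and line 1 fell as far as lines 2 and 3. The falls were 1.80 ± 0.16, 1.59 ± 0.20 and 1.55 ± 0.19 (adjusted p = 0.00206, 0.00388 and 0.00382 for Etv4, Etv5 and Etv1), and all 3 calls held without each line. Dusp6, the phosphatase that ERK induces against itself, had levels of 4.24, 5.54 and 4.83 in base medium, against 4.92, 5.00 and 4.53 in ENSW medium, and did not separate the media (0.06 ± 0.24, adjusted p = 0.891).

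Etv1 parted BRAF from EV organoids. It rose in EV organoids by 1.35 ± 0.19 (adjusted p = 0.000413), and the difference of responses was -2.90 ± 0.27 (adjusted p = 0.00567), kept without each line (up to 0.0317). Etv4 and Etv5 fell in EV organoids by 2.23 ± 0.16 (adjusted p = 7.49e-05) and 1.94 ± 0.20 (adjusted p = 0.000133). Of 13 fetal-like and YAP target genes 0 rose and 1 fell (2, 0 and 0 rose, and 2, 1 and 1 fell), against 8.05% and 5.89% of all genes. The 1 called was Ccn2, a secreted target of YAP and TGF-beta, which fell in BRAF organoids by 2.19 ± 0.27 (adjusted p = 0.004, and 0.0613 with culture as a random block). Of 11 EGF family ligands, receptors and inhibitors 1 rose and 0 fell (6, 0 and 0 rose, and 1, 0 and 0 fell), also against 8.05% and 5.89%. Erbb2, a receptor partner, was the 1 that rose, by 0.85 (adjusted p = 0.0107, and 0.0795 and 0.0567 without line 2 and 3).

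Cholesterol synthesis genes rose in BRAF organoids. Of 22 measured, 12 rose and 0 fell (11, 1 and 3 rose), with a median of 0.64, and 19 of 22 were higher in all 3 lines (28.0% of all genes were). Hmgcs1, the synthase of the mevalonate pathway, had levels of 5.78, 5.92 and 5.67 in base medium, against 4.94, 4.97 and 4.83 in ENSW medium. The 3 lines took almost the same step, 0.88 ± 0.14 (adjusted p = 0.0077, and 0.0587 without line 2). Sqle, squalene epoxidase, rose by 0.74 ± 0.12 (adjusted p = 0.0103, and 0.0606 without line 2), and Insig1, the sterol sensor that restrains the pathway, by 1.04 ± 0.17 (adjusted p = 0.00971, and 0.0526 and 0.0563 without line 2 and 3). The EV median was -0.08, and 10 of 22 genes responded higher in BRAF than in EV organoids (1 without BRAF line 1 and 1 without EV line 3), against 9.59% of all genes in the full fit. Lss, lanosterol synthase, rose by 0.76 ± 0.17 in BRAF organoids (adjusted p = 0.0233, and 0.134 and 0.0803 without line 2 and 3) and fell by 0.78 ± 0.17 in EV organoids (adjusted p = 0.00378), a difference of 1.54 ± 0.23 (adjusted p = 0.0173). In selected organoids the list median was 0.58 and 0 of 22 were called (0.0187% of all genes were). Of 11 fatty acid synthesis genes 3 rose (0, 0 and 0 rose), and of 19 glycolysis and hypoxia genes 5 rose (4, 1 and 1 rose), against 8.05% of all genes. Among the 5 was Ldha, lactate dehydrogenase, which rose by 0.71 ± 0.10 (adjusted p = 0.00637).

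Acute phase genes included a large rise of Saa2. Saa2, a serum amyloid A gene of inflamed epithelium, had levels of 0.00, -0.23 and 0.96 in base medium, against -5.12, -4.99 and -2.64 in ENSW medium. Saa1, its near-identical neighbour, had levels of 0.71, 0.61 and 1.50 in base medium, against -1.33, -1.26 and -0.60 in ENSW medium. Both genes were higher on every base array. Saa2 rose by 4.49 ± 0.28 (adjusted p = 0.000621) and Saa1 by 2.00 ± 0.20 (adjusted p = 0.00215), and since such close copies can share probe signal the split between them is uncertain. Saa1 rose by 4.0 ± 0.20 in EV organoids (adjusted p = 4.93e-05), more than in BRAF organoids (difference -1.99 ± 0.28, adjusted p = 0.0157). Dmbt1, a mucosal defence glycoprotein, rose by 3.07 ± 0.36 (adjusted p = 0.00373, and 0.241 with culture as a random block). The whole list of 22 acute phase and antimicrobial genes had 5 higher and 1 lower (4, 3 and 3 rose, and 1, 0 and 0 fell), against 8.05% and 5.89% of all genes.

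Interferon response genes moved least in line 1. Of 24 measured, 10 rose and 0 fell (17, 1 and 2 rose), with a median of 1.39 and medians by line of 0.45, 1.47 and 2.39. Of the 24, 16 were higher in all 3 lines (28.0% of all genes were). Only 1 had base arrays that all lay above the ENSW arrays (12.2% of all genes did). Oasl2, an antiviral protein, had levels of -4.02, 2.38 and 0.92 in base medium, against -7.18, -0.77 and -3.25 in ENSW medium. Line 1 was low in both media and the media overlapped, but each line was higher in base medium, by 3.50 ± 0.46 on average (adjusted p = 0.00472). The EV median was 2.18 and the selected median -0.14.

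Among the other named genes, the largest falls with separate media included Cyp1a1, the aryl hydrocarbon receptor target. Cyp1a1 had levels of -6.39, -7.40 and -6.86 in base medium, against -2.19, -2.62 and -2.86 in ENSW medium. It was not well above background on any base array and was at least 7.78-fold lower (adjusted p = 0.00622, and 0.0519 without line 2). Rapgef3, a cAMP-activated exchange factor, fell by 2.49 ± 0.30 (adjusted p = 0.00373), and Tnfrsf8, the receptor CD30, by 2.77 ± 0.34 (adjusted p = 0.00388). Slc51b and Slc51a, which together form the exporter that carries bile acids out of enterocytes, were at least 24.5-fold (adjusted p = 0.00274) and at least 14.5-fold higher (adjusted p = 0.00883) and were not well above background on any ENSW array. A second, dimmer Slc51a probe gave a difference of 2.59, against 5.10 for the one used. Of 110 called named genes 68 were higher and 42 lower, and 43 kept the call without each line.

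Markers of cells outside the epithelium were measured on the same arrays. Of 13 mesenchymal genes 5 were measured and 2 of these, Acta2 and Col1a2, were well above background on all 6 BRAF arrays while Pdgfrb was on 0 of 6. The summed linear level of the 5, in multiples of each array's 75th percentile, was 0.748 to 1.25 in base medium and 0.357 to 0.554 in ENSW medium. Thy1 was the only one called, higher by 3.34 ± 0.59 (adjusted p = 0.0125, and 0.0558 without line 3), and its part in other results was not tested. Of 12 blood and endothelial genes 9 were measured, 8 of these were well above background on all 6 BRAF arrays, and 0 were called by limma (1 at an unadjusted p under 0.05). Their summed level was 27.5 to 38.6 in base medium and 24.3 to 29.5 in ENSW medium. Of 6 measured gastric genes 0 were called by limma (1 at an unadjusted p under 0.05), with a summed level of 0.685 to 10.03 in base medium and 0.506 to 21.01 in ENSW medium.

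Over all genes, most of what changed in BRAF organoids also changed in EV organoids. Of the 2984 BRAF calls 2682 (89.9%) were called in EV organoids too, 2655 of them in the same direction, and these were 21.5% of the 12466 EV calls (58.2% of genes). The EV change was the larger for 2272 of the 2984. The response itself differed between BRAF and EV organoids for 3217 genes (15.0%), 2053 higher in BRAF and 1164 lower, but for 394 without BRAF line 1 and 545 without EV line 3. Normexp gave 2306 higher and 2011 lower. It differed for 737 of the 2984 BRAF calls. Against selected organoids 128 genes (0.598%) differed, 120 higher in BRAF (0.560%) and 8 lower (0.0374%). That count was 0, 1 and 0 without selected line 1, 2 and 3, and 1230, 12 and 5 without BRAF line 1, 2 and 3. Normexp gave 221 higher and 61 lower there, and the authors' deposited values 198 and 68.

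Cpn1, a carboxypeptidase subunit, rose by 4.80 ± 0.36 in EV organoids (adjusted p = 7.9e-05) and gave -0.87 ± 0.36 in BRAF organoids (adjusted p = 0.129), a difference of -5.67 ± 0.51 (adjusted p = 0.00567). Capn9, a calpain of the digestive tract, fell by 0.72 ± 0.18 in BRAF organoids (adjusted p = 0.0338) and rose by 3.04 ± 0.18 in EV organoids (adjusted p = 5.93e-05). The difference of -3.76 ± 0.25 (adjusted p = 0.0014) held without each line, while the fall in BRAF organoids was lost without any 1 line (up to 0.201) and under 4 of 8 other settings (up to 0.279).

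**Figure D4:**
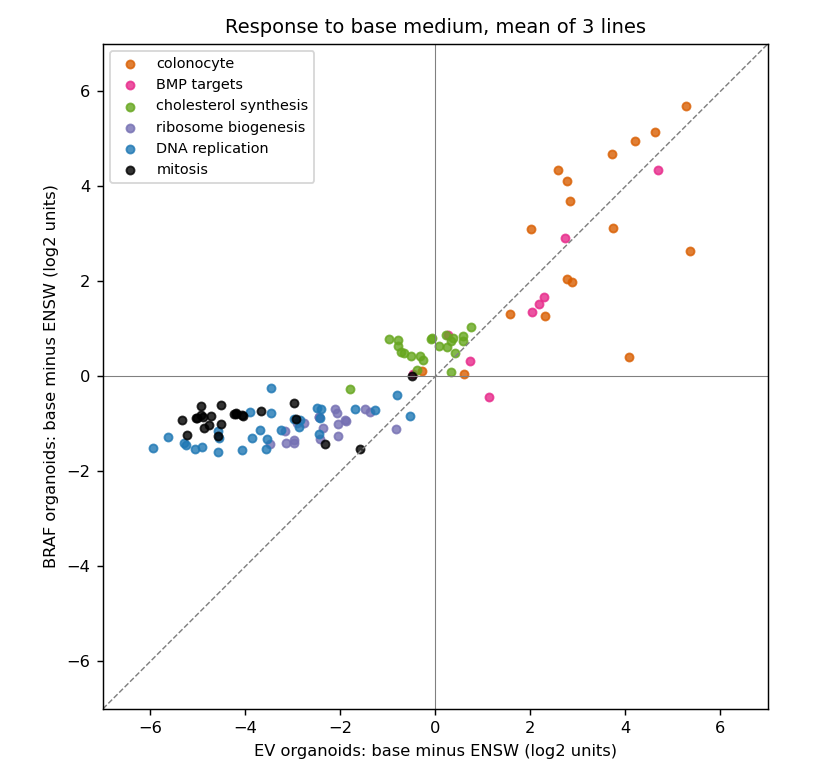
Base minus ENSW difference in BRAF organoids (log2 units, y axis) against that in EV organoids (x axis), each the mean of 3 lines, for the measured genes of 6 lists, with the diagonal of equal response dashed. Colonocyte and BMP target genes lie around the diagonal, while mitosis genes lie near -4.52 in EV organoids and near -0.85 in BRAF organoids.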

How the data were processed

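RNA of 20 arrays was measured on single-colour Agilent arrays, and 18 were used here: 3 EV, 3 BRAF and 3 selected lines, each in base and ENSW medium. The 2 WT arrays were not analysed here. Each deposited file holds the processed intensity of every spot, with background and outlier flags, made by Feature Extraction 10.7.3.1 per the file headers, which place probes on mm9. The authors' deposited table of normalized log2 values was used as an alternative only, and the submitters' processing notes name limma.

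Log2 processed intensity minus the 75th percentile of the array was taken. Outlier spots were left out on their array and spots of a probe averaged. A probe was kept if 3 or more of the 18 arrays had it well above background (26802 probes), and the brightest probe stood for its gene (21410 genes, 16074 with a symbol). limma 3.58.1 (R 4.3.3) fitted the medium effect of each organoid type with the 9 cultures as a block, with 6 residual degrees of freedom, and p-values were Benjamini-Hochberg adjusted over all genes and called under 0.05. Base and ENSW arrays of a line carry the same line number, and their deviations from the group means correlated at 0.486, 0.662 and 0.694 in BRAF lines 1, 2 and 3, at 0.423 to 0.603 in EV lines and at 0.813 to 0.874 in selected lines, so the fit was paired. The responses of BRAF lines, as deviations from the mean of their type, correlated with those of the same-numbered selected lines at 0.272, 0.114 and 0.183, and of the same-numbered EV lines at 0.153, -0.00886 and 0.223. A block on that number across types was added as an alternative after the data were examined. On simulated data of 21410 genes for the BRAF contrast, 46% of changes of 1 log2 unit and 85% of 2 log2 units were recovered, and 7.09% of calls were false. There all BRAF lines had the same underlying response, and a gene's noise was equal on all arrays. Far fewer BRAF genes were changed there than were called here. These shares therefore do not cover lines that respond differently or organoid types of unequal spread. The number of arrays limits the precision. Figures used Python 3.11.15 and matplotlib 3.10.9.

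Named genes were the 8 largest rises and 8 largest falls among called genes with separate media in all 3 lines, up to 2 called genes per direction that were not well above background in 1 medium, up to 4 called genes of each list by smallest p, the 4 smallest p per direction of each difference of responses, and a fixed set. Other list members are named to describe a list, and some genes that the rule names are not reported here. The comparison, the lists and the fixed set were chosen with earlier results of these data known. Alternatives were an unpaired fit, culture as a random block, the 6 BRAF arrays alone, limma with trend and robust, normexp (offset 50), quantile normalization, the authors' values, other filters, the mean over probes, and leaving out each line.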

Additional observations from a re-analysis of the deposited data

Results flagged for a closer look

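For 31 of the named genes reported here the response to base medium differed between BRAF and EV organoids (15.0% of all genes did). The test was of the difference itself, in limma's paired fit. Of the 31 differences 12 held without each of the 6 lines. Some named genes were chosen by the smallest p of this same test, so the count of 31 shows no enrichment. Values are the BRAF response minus the EV response in log2 units. Among cell-cycle genes the difference was 4.15 for Mki67, 2.03 for Cdc6, 2.11 for E2f1, 2.22 for E2f2, 1.24 for Rfc3 and 1.57 for Rfc4. Among ribosome assembly genes it was 1.11 for Nop56 and 1.00 for Nop2. Among metabolic and amino acid genes it was 0.56 for Fdft1, 1.63 for Acss2, 1.77 for Asns, 1.83 for Mthfd2 and 2.63 for Phgdh. Among differentiation and signalling genes it was 0.77 for Elf3, -1.96 for Clca1, -3.44 for Muc2, 0.83 for Ephb2, -1.95 for Bmp2 and -2.90 for Etv1. Among defence genes it was -1.99 for Saa1, 2.19 for Dmbt1 and 2.13 for S100a9. The other genes were Tlcd3a with 2.32, Pkp1 with 2.63, Kcnn4 with 3.25, Capn9 with -3.76, Cpn1 with -5.67, Plcxd3 with -3.04, Tmem47 with -2.12, Bend5 with -1.92 and Pkib with 0.80.

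For 18 of the named genes reported here the BRAF response differed from that of selected organoids (0.598% of all genes did). Of the 18 differences 0 held without each line. Genes chosen by the smallest p of this difference are among the 18 too. Values are the BRAF response minus the selected response. Among absorptive and lipid genes the difference was 3.42 for Alpi, 4.58 for Hsd3b3, 3.99 for Lypd8, 3.22 for Slc26a3 and 1.44 for Pparg. Among defence genes it was 4.60 for Saa2, 2.09 for Saa1, 2.98 for Dmbt1 and 3.92 for Oasl2. The ETS factor Etv4 gave -1.50. The other genes were Capn9 with -1.69, Aldh1a1 with 2.83, Abcg2 with 3.64, Apol10a with 3.25, Prdx6 with 1.46, Tmem47 with -2.41, Bend5 with -1.45 and Pkib with -1.11. Bend5 has a second probe, and the probes gave base minus ENSW differences of -1.55 and 0.05 in BRAF organoids.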

How the results depend on the processing

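None of the 110 called named genes changed sign under the alternatives run, while 5 named genes that were not called did: Tlcd3a, Plcxd3, Braf, Dusp6 and Axin2. Of the list medians 8 changed sign in some alternative, all within 0.23 of 0 in the reported fit: 7 with normexp, 5 without line 2, 2 without line 3, 1 with the authors' values and 1 with the filter on BRAF groups. With the authors' values 1844 genes were higher and 2048 lower, against 1724 and 1260. The 2984 genes called in BRAF organoids became 424 to 4811 when 1 line was left out, 0 with the 6 BRAF arrays alone (4936 at an unadjusted p under 0.05, limma) and 358 without the block on line. Pairing by line mattered likewise for the differences of responses: without the block 756 genes differed from EV and 0 from selected organoids (1799 at an unadjusted p under 0.05, limma), against 3217 and 128 with it. Leaving out 1 line gave 394 to 3426 genes that differed from EV and 0 to 1230 that differed from selected organoids. The count against selected organoids was also 354 with culture as a random block, 283 with trend and robust, 282 with normexp, 266 with the authors' deposited values and 6 without the filter. Of 31 lists 20 had a median above 0, and 13 had with normexp, where the median of all genes was -0.083 against 0.061. The cause of these shifts was not tested. A fit with the line number as a replicate block across organoid types, chosen after seeing the data, called 3357 genes in BRAF organoids, 3444 that differed from EV and 154 that differed from selected organoids. Of the 110 called named genes 27 kept the call unpaired, 81 in all of the 8 other settings, and 43 without each line. Of 142 called list members 19 missed the threshold without line 1, and at least 102 without line 2 or line 3. Genes not well above background in 1 medium have only a bound there.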

Other observations

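Some genes of bile acid and drug handling outside the lists were called higher in BRAF organoids and others were not; they were chosen after their values were seen, so their counts show no enrichment. Slc10a2, which takes bile acids up from the lumen, had levels of -1.34, 1.60 and -0.70 in base medium, against -4.64, -4.11 and -4.68 in ENSW medium. The media did not overlap, and the rise was 4.33 ± 0.50 (limma, adjusted p = 0.00356). Abcc3, an exporter of conjugates, rose by 1.18 (adjusted p = 0.00519), and Nr1h4, the bile acid receptor FXR, by 3.09 (adjusted p = 0.0217), a call lost without line 2 or 3. Fgf15 and Fabp6, known FXR targets in the ileum, gave -0.09 (adjusted p = 0.927) and -0.04 (adjusted p = 0.941). Gsta1, a glutathione transferase, rose by 3.46 (adjusted p = 0.00373), Cyp4f14, a fatty acid hydroxylase, by 3.40 (adjusted p = 0.00547) and Nr1i2, the drug receptor PXR, by 1.33 (adjusted p = 0.00472). Cyp3a11, a known PXR target in liver, gave 0.14 (adjusted p = 0.767), and Cyp3a13, Ugt2b5 and Cyp2c68 gave 1.76, 0.60 and -0.21 (adjusted p = 0.053, 0.501 and 0.719). Vdr, the vitamin D receptor, rose by 2.67 (adjusted p = 0.00323) and Muc13, a membrane mucin, by 2.93 (adjusted p = 0.00642). In EV organoids Slc10a2, Abcc3, Gsta1, Cyp4f14, Nr1i2, Vdr and Muc13 were called higher too, while Nr1h4 gave 1.55 (adjusted p = 0.0723). In the reported fit Cyp3a13, Ugt2b5, Cyp2c68 and Fgf15 were called higher in EV organoids only, by 4.37, 2.47, 2.41 and 1.45. Cyp3a13 was called in BRAF organoids too under several other settings (from 0.0125 with normexp to 0.0492 with the mean over probes), but not without line 2 or 3 (0.266 and 0.251). The BRAF response was lower than the EV response for Abcc3, Cyp3a13 and Cyp2c68 (differences -0.82, -2.61 and -2.62). For Ugt2b5 and Fgf15 the difference of responses was not called (limma, adjusted p = 0.158 and 0.202).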
